A study of Mus musculus with 6 samples.

Results

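TEC is the Ensembl biotype for loci annotated from unspliced cDNA or expressed-tag evidence that still await experimental proof of being a gene. All rows of the deposited count table with this biotype were taken, 3238 of 55416 gene rows, or 5.84%. They were grouped by whether their span shared at least 1 base with a protein-coding row. The same-strand group held 1538 loci (22 of them also overlapped a coding row on the other strand), the opposite-strand group 484, and 1216 overlapped no coding row.

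Unspliced transcripts of this kind can come from several sources in brain. Introns of long neuronal genes are read through by RNA polymerase and spliced out, and pieces of them can be cloned as if they were transcripts of their own. RNA from beyond an annotated 3′ end can belong to a longer form of the neighbouring mRNA, and RNA from the opposite strand can be antisense or divergent transcription from a promoter. Ethynyluridine (EU) is a uridine analogue that is built into newly made RNA and carries an alkyne, through which biotin can be attached by click chemistry.

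Mouse pups were injected subcutaneously with EU at 50 mg/kg, or with an equal volume of phosphate-buffered saline (PBS), once a day from postnatal day 3 to postnatal day 5. Hippocampus was dissected on postnatal day 36. RNA of either group was biotinylated by the click reaction and pulled down on streptavidin beads, and total RNA libraries were sequenced. The comparison of 3 EU with 3 PBS libraries asks which RNAs made in the injected period were still present, with PBS as the background of the pulldown. Strain, sex, age beyond the day of harvest and the number of animals behind a library are not given in the labels. The p-values therefore describe the spread among these 6 libraries, part of which may be technical.

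Library totals lay between 39886723 and 58301239 counts. PBS replicate 2 stood apart in the number of loci it detected, and EU replicate 3 in its counts at same-strand TEC loci. Values without them are given where they move a result. All 5 granule and all 5 pyramidal neuron markers were found, which fits the labelled tissue, but so were all 5 neocortex and all 5 choroid plexus markers, none of them at 0. Summed CPM (read counts relative to library size, scaled by TMM) of the granule markers lay between 359 and 384 in EU against 403 and 495 in PBS. That of the neocortex markers lay between 241 and 324 in EU against 198 and 238 in PBS. Pyramidal markers summed to 1353 to 1524 in EU, against 1541 to 1641 in PBS, and choroid plexus markers to 754 to 3717 against 1696 to 5343. The part of these differences in the results below was not tested. In bulk tissue, fewer cells of a type and less RNA per cell cannot be told apart.

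The ends of the TEC loci set the groups apart in sequence. The hexamer AATAAA, the canonical signal for cleavage and polyadenylation, was searched in the last 50 bases of each transcript, on the transcript's strand only, in GENCODE M21 (build GRCm38), matched by Ensembl identifier. It was present in 21.9% of TEC transcripts, 32.4% of lncRNA transcripts, 56.6% of protein-coding transcripts and 1.62% of processed pseudogenes. Among TEC loci the share was 14.4% for the same-strand group, 32.2% for the opposite-strand group and 27.1% for those without overlap. A match is a description of letters and not of a used site. The last 50 bases are shown for the well-covered loci downstream of a coding gene on its strand and for the 4 same-strand loci with most CPM per kb, all of which lie in introns, with AATAAA in capitals.
9330121K16Rik, beyond Gpm6a (GRCm38 chr8:55077085-55077134, plus strand): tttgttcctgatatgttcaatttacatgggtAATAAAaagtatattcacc
Gm44509, beyond Nipa1 (chr7:55973519-55973568, minus strand): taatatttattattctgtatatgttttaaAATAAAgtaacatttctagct
Gm49593, beyond Kcnj4 (chr15:79480227-79480276, minus strand): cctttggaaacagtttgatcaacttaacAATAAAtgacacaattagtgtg
Gm16485, beyond Pgr (chr9:8975724-8975773, plus strand): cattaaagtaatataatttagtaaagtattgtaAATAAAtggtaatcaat
Gm47155, beyond Homer1 (chr13:93412908-93412957, plus strand): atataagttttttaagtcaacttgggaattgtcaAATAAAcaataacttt
Gm37111, beyond Mobp (chr9:120183148-120183197, plus strand): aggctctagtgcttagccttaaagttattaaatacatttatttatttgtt
Gm42732, in Ociad1 (chr5:73312511-73312560, plus strand): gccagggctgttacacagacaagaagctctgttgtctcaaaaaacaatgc
Gm45640, in Chd9 (chr8:90878427-90878476, plus strand): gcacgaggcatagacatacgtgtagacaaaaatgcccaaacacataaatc
Gm42433, in Map4 (chr9:110006864-110006913, plus strand): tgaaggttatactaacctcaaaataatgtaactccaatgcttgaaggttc
Gm43843, in Cttnbp2 (chr6:18429659-18429708, minus strand): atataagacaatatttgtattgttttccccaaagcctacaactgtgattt

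Of the 6 downstream loci, 5 ended with the hexamer and Gm37111 did not, whereas none of the 4 intronic loci had it. These loci were picked by level and not by sequence. Over all 139 TEC loci within 10 kb beyond the 3′ end of a same-strand coding row, 50 (35.97%) had it, and over the 137 that lie within 10 kb before the 5′ end of an opposite-strand coding row, 58 (42.3%) had it. Of the 811 loci farther than 10 kb from a coding row, which include 9330121K16Rik at 12378 bases, 194 (23.9%) had it.

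The loci were short and mostly unnamed. The median span was 2002 bases, with quartiles of 1150 and 2851 and a range of 43 to 200934. Of these loci, 2835 carried a Gm name, 380 a Rik name and 5 no symbol. All 3238 identifiers were found in GENCODE M21, where 3139 had 1 exon, 99 had more, and 24 were still classed as protein coding. Thymine, the DNA letter for the uridine that EU replaces, made up a median 30.7% of same-strand, 25.7% of opposite-strand and 28.4% of non-overlapping TEC transcripts, against 25.6% for lncRNA and 25.2% for coding transcripts.

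Same-strand TEC loci were almost all intronic. Of the 1538, 1530 lay wholly inside the coding row, and in GENCODE M21 1473 touched no exon of a coding gene and 61 did. They sat in 914 host genes, 266 of which held more than 1 locus, so 905 loci share a host and are not independent of each other. Of the 484 opposite-strand loci, 248 touched an exon of the gene on the other strand and 235 lay in its introns only. Loci with no overlap had a median distance of 30196.5 bases to the nearest coding row, and 405 were within 10 kb.

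Within introns, signal was higher on the strand of the host gene. For loci in introns only, median CPM per kb of span over the 6 libraries was 0.138 on the host's strand and 0 on the opposite strand. Over all loci, intronic or not, it was 0.133 for same-strand loci, 0.0043 for opposite-strand loci and 0 for loci without overlap. No count in any library was found for 5.07%, 45.04% and 53.5% of these groups, 946 loci in all. A count of 0 in the 6 libraries allows up to 0.0106 CPM, from 3 counts of the summed total, with counting error only. Among loci that lie in introns only of hosts with at least 10 CPM, 1209 of 1223 (98.9%) on the host's strand were detected, against 44 of 165 (26.7%) on the opposite strand, although the hosts had similar median levels of 66.8 and 55.4 CPM. Counts pooled over these loci gave 0.179 to 0.291 CPM per kb on the host's strand and 0.0486 to 0.0621 on the opposite strand, without overlap across the 6 libraries. Where an opposite-strand locus touched an exon of such a host, 151 of 165 (91.5%) were detected. Their median was 0.0599 CPM per kb, and pooled they gave 0.282 to 0.351, above the pooled same-strand intronic value in each library but overlapping its range. The strand setting of the authors' counting is unknown here, and reads of a locus cannot be told for certain from reads of the exon across from it.

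A small number of loci carried much of the signal. The 10 with most counts took 13.98% of all TEC counts and the 100 with most took 38.4%. Same-strand loci took 57.2%, non-overlapping loci 29.5% and opposite-strand loci 13.4%. Of the counts at non-overlapping loci, 41.8% fell on the 139 loci within 10 kb beyond a same-strand 3′ end, of which 115 (82.7%) were detected. Loci farther than 10 kb from a coding row took 41.6% of those counts over 811 loci, of which 287 (35.4%) were detected. 9330121K16Rik, 12378 bases beyond Gpm6a, is counted among these 811 and held 2.77% of all TEC counts.

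Downstream loci filled 5 of the 10 highest places by CPM, which is not corrected for span. 9330121K16Rik (ENSMUSG00000110249, GRCm39 chr8:55526284-55530169) lies 12378 bases beyond Gpm6a, a neuronal membrane glycoprotein. It had 27.9, 29.8 and 36.1 CPM in EU and 29.2, 38.3 and 31.9 in PBS. The groups overlap. Per kb it stood at 8.29 CPM, and Gpm6a at 8.78 over a span that includes introns, so these are not like measures. Gm44509 (GRCm39 chr7:55623267-55624590), 2725 bases beyond the magnesium transporter gene Nipa1, had 16.8, 19.3 and 19.6 CPM in EU and 18.1, 22.4 and 18.5 in PBS, also overlapping. The log2 fold of EU over PBS was -0.08 (SE 0.127) for the first and -0.09 (SE 0.12) for the second (edgeR adjusted p = 0.895 and 0.887), and without PBS replicate 2 they were 0.03 and 0.015.

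The other downstream loci did not pass the test. Gm47155, 5654 bases beyond Homer1, which encodes a postsynaptic scaffold, had 9.73, 10.6 and 11.3 CPM in EU and 7.32, 9.31 and 9.38 in PBS. The groups do not overlap (log2 fold 0.28, SE 0.15, edgeR adjusted p = 0.718, and 0.17 without PBS replicate 1), while Homer1 itself overlapped, at 151 ± 13.1 and 136 ± 20.8 CPM (SD, n = 3 each). Gm49593, 1040 bases beyond the inward rectifier potassium channel gene Kcnj4, had 10.4, 12.4 and 13.8 CPM in EU and 10.9, 4.32 and 9.38 in PBS. Its groups overlap through PBS replicate 1 (log2 fold 0.57, SE 0.287, edgeR adjusted p = 0.70, and 0.26 without PBS replicate 2). Gm16485, beyond the progesterone receptor gene Pgr, had 10.03 ± 0.346 and 10.1 ± 1.33 CPM, and Gm37111, beyond the myelin gene Mobp, 2.83 ± 0.366 and 2.82 ± 1.17 (SD, n = 3 each).

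Inside introns, Gm42732 led with 19.0 CPM per kb. It lies in Ociad1, a gene for a mitochondrial membrane protein, at GRCm39 chr5:73468707-73469903, and had 24.6, 24.3 and 26.4 CPM in EU against 21.2, 17.6 and 22.7 in PBS. The groups do not overlap (log2 fold 0.29, SE 0.113, edgeR adjusted p = 0.553, and 0.19 without PBS replicate 2). Stretches of at least 100 bases of its transcript match 98 other genes at 95% identity or more, so its reads are uncertain. Gm45640, in the chromatin remodeller gene Chd9, had 13.0 ± 2.02 CPM in EU and 11.6 ± 2.26 in PBS, Gm42433, in the microtubule-associated protein gene Map4, 5.08 ± 0.206 and 4.12 ± 0.583, and Gm43843, in the cortactin-binding protein gene Cttnbp2, 4.59 ± 1.45 and 4.08 ± 0.309 (SD, n = 3 each). These loci had 6.48, 4.89 and 2.73 CPM per kb. Per kb of full span, their hosts had 0.414 (Chd9), 3.72 (Map4) and 0.852 (Cttnbp2). Host spans include introns, so these measures are unlike and do not rank a locus above its host.

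On the opposite strand, the highest levels lay across from exons. Gm49338, across from the β-secretase gene Bace1, had 13.8 ± 1.47 CPM in EU and 12.8 ± 1.08 in PBS. Particl, across from the start of the methionine adenosyltransferase gene Mat2a (its human counterpart is known as an antisense RNA induced by radiation), had 9.82 ± 1.18 and 9.39 ± 1.03. Gm9954, across from Nwd2, had 13.2 ± 0.955 and 13.2 ± 3.81 (SD, n = 3 each for these loci). Their groups overlap. The transcripts of Gm49338, Gm9954 and Particl match 634, 1213 and 211 bases of the coding transcript across from them, so reads there are shared unless they were counted by strand.

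As a share of all counts, TEC loci took about as much of the EU as of the PBS pulldown. They took 0.113, 0.106 and 0.146% of counts in EU and 0.116, 0.113 and 0.106% in PBS (exact two-sided permutation p = 0.6, adjusted over 4 shares 0.8). EU replicate 3 is the high value, and the groups overlap. Without EU replicate 3 the difference turned from 0.0105 to -0.00183 percentage points. The smallest p that 3 against 3 libraries can give is 0.1.

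The same-strand loci held most of that high value. Their share was 0.0634, 0.0549 and 0.0889% in EU and 0.0666, 0.0664 and 0.0594% in PBS (exact permutation p = 0.9, adjusted 0.9), and the difference of 0.00494 points was -0.00496 without EU replicate 3. Opposite-strand loci took 0.0153, 0.0169 and 0.0171% in EU and 0.0154, 0.0146 and 0.0142% in PBS (exact permutation p = 0.2, adjusted 0.4), overlapping through EU replicate 1. Non-overlapping loci took 0.0342, 0.0340 and 0.0403% in EU and 0.0335, 0.0315 and 0.0320% in PBS. Here all 3 EU libraries lay above all 3 PBS libraries (exact permutation p = 0.1, adjusted 0.4), and the difference of 0.00386 points was 0.00179 without EU replicate 3.

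**Figure D1:**
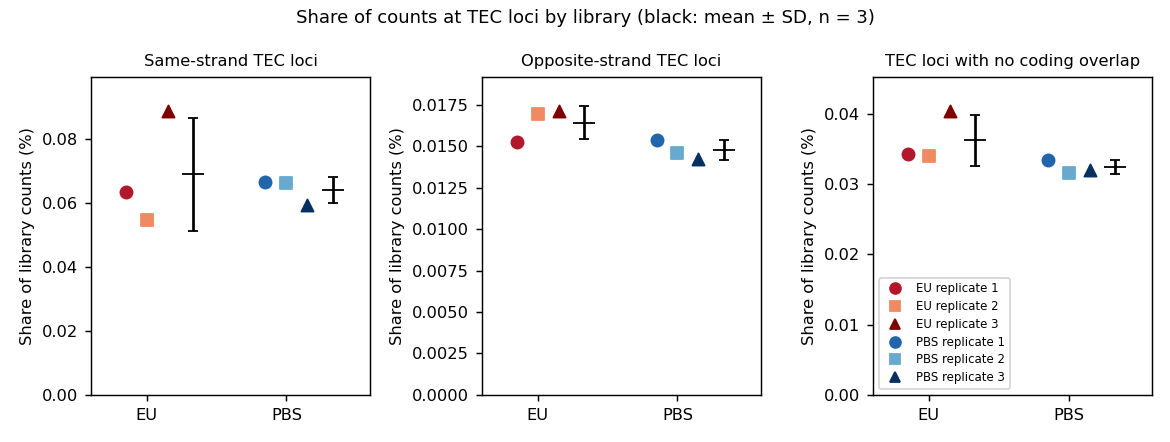
Share of library counts (%, y axis) at TEC loci of each overlap group in the 3 EU and 3 PBS libraries. Points are libraries and black marks the mean ± SD of 3, and EU replicate 3 is the highest point in each panel, at 0.0889, 0.0171 and 0.0403%.

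Set against their host genes, same-strand loci gave 0.794, 0.695 and 1.07 counts per 100 host counts in EU and 0.841, 0.837 and 0.735 in PBS. The groups overlap (exact permutation p = 0.9), and without EU replicate 3 the difference turned from 0.0467 to -0.0603. Of the 849 same-strand loci tested, 294 (34.6%) had their highest CPM in EU replicate 3, against 17.2% of lncRNA rows and 14.6% of coding rows. EU replicate 2 was their highest library for 4.83% (13.8% of lncRNA and 13.1% of coding rows). PBS replicate 2 was the highest for 30.3% of them (31.7% of lncRNA and 26.8% of coding rows). It was also the lowest for 43.7% of them (41.1% of lncRNA and 33.9% of coding rows). Of the 187 tested loci without overlap, 29.9% were highest in EU replicate 3, as were 18.5% of the 92 opposite-strand loci.

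Which loci were seen at all differed more than how many counts they took. At an equal depth of 39886723 counts, 1968, 1887 and 1980 TEC loci were detected in EU and 1724, 965.8 and 1850 in PBS. The groups do not overlap (exact permutation p = 0.1, the smallest possible), and the gap of 431.8 loci was 158.1 without PBS replicate 2. In that library 601 loci had 0 counts that had counts in each of the other 5, where the same number for the other libraries was 0 to 34. Its detected loci had a median of 31 counts, against 10 to 16 elsewhere. A count of 0 in PBS replicate 2 allows up to 0.0684 CPM with counting error only. This limit may be too low for that library, where loci well counted elsewhere were at 0. Gm10048, for example, had 82, 25 and 92 counts in EU and 65, 0 and 77 in PBS.

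Detection was also lower in PBS for other RNA classes. At equal depth 84.3 to 89.3% of same-strand loci were detected in EU, and 79.7, 46.0 and 84.8% in PBS, where the third PBS library lay above EU replicate 2. Opposite-strand loci reached 40.7 to 41.5% in EU and 34.8, 16.7 and 37.5% in PBS, and loci without overlap 32.1 to 34.6% in EU and 27.1, 14.6 and 29.99% in PBS. lncRNA rows had 37.9 to 39.95% in EU and 31.2, 16.7 and 35.1% in PBS, and coding rows 75.01 to 75.2% and 72.8, 66.5 and 73.9%. Processed pseudogenes had 20.4 to 22.0% in EU and 19.2, 15.03 and 20.97% in PBS. The groups overlap for same-strand loci and processed pseudogenes, and do not overlap for the other 4 classes.

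**Figure D2:**
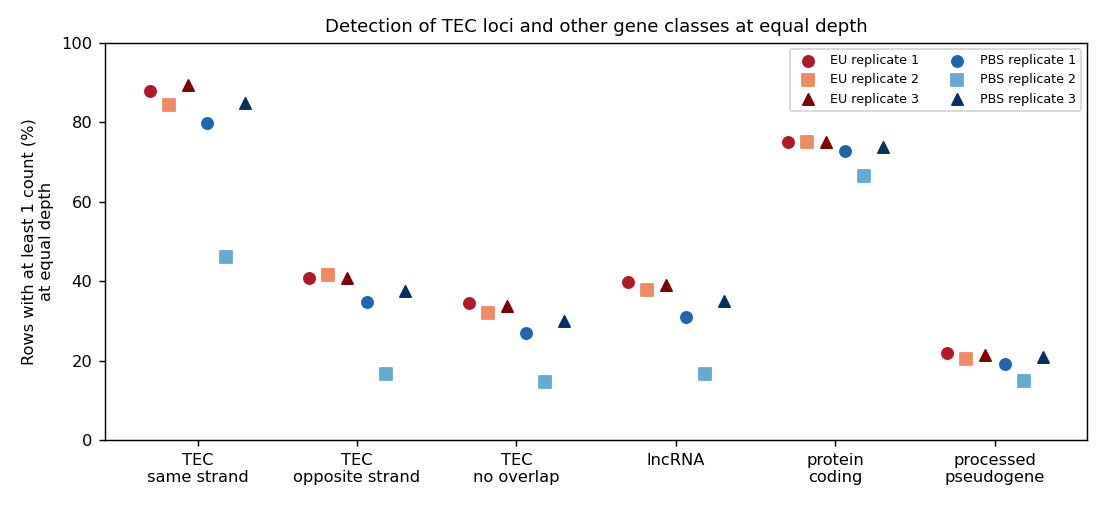
Percentage of rows with at least 1 count at equal depth (y axis) in each library, for the 3 groups of TEC loci and 3 other classes. PBS replicate 2 is the lowest point in each class, at 46.0% for same-strand TEC loci and 16.7% for lncRNA.

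Locus by locus, no TEC locus separated EU from PBS at the adjusted threshold. Of the 3238, 1128 passed the filter on low counts (849 same strand, 92 opposite strand, 187 without overlap), and 0 passed edgeR's quasi-likelihood test at an adjusted p of 0.05, as did 0 of all 18511 rows tested (0.0%). The smallest adjusted p among TEC loci was 0.38, that of Gm37176. An unadjusted edgeR p under 0.05 was reached by 13 loci with higher EU values and 4 with lower ones, or 1.51% of the 1128 in all. Over all rows the rate was 7.88%, made up of 3.84% higher and 4.05% lower in EU. The groups' CPM ranges were apart for 90 loci with higher and 24 with lower EU values (7.98% and 2.13%), where all rows gave 8.51% and 7.19%. Without EU replicate 3 these counts were 105 and 98 (all rows 12.5% and 10.5%), and without PBS replicate 2 they were 158 and 64 (all rows 13.99% and 12.9%). DESeq2 called 1 TEC locus and edgeR without the filter called 1, in both cases Gm37176 (adjusted p = 0.0491 and 0.00153). Over all rows DESeq2 called 0.702% as higher and 0.854% as lower in EU, and the unfiltered edgeR fit 0.514% and 0.283%.

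The median log2 fold of EU over PBS was 0.10 over the 1128 tested loci (638 above 0, 490 below), against 0.01 over all 18511 rows, 0.06 over lncRNA rows and -0.11 over processed pseudogenes. By group it was 0.08 for same-strand, 0.15 for opposite-strand and 0.16 for non-overlapping loci. Without EU replicate 3 the median over all TEC loci was -0.07 and over same-strand loci -0.13, while over non-overlapping loci it was 0.07. The opposite-strand median was 0.42 without PBS replicate 1 and 0.04 without PBS replicate 2. Without EU replicate 2 the medians were 0.23 over all TEC loci, 0.23 over same-strand, 0.09 over opposite-strand and 0.24 over non-overlapping loci, and without PBS replicate 1 they were 0.22 over all, 0.19 over same-strand and 0.27 over non-overlapping loci. Without EU replicate 1 the same-strand median was 0.13. The 506 coding hosts of the tested same-strand loci had a median of 0.0055. The loci are noisy, with a median SE of 0.793 log2 units against 0.131 for coding rows, at a median level of 0.54 CPM. Split by thymine content at 29.1% and 32.1%, the 3 parts of about equal size, from lowest to highest, had medians of 0.15, 0.12 and 0.016.

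The loci with the smallest p and higher EU values include 3 antisense to coding genes. Gm10118, on the opposite strand within an intron of the α-T-catenin gene Ctnna3, had 2.56, 2.04 and 2.59 CPM in EU and 0.681, 0.186 and 1.23 in PBS (log2 fold 1.76, SE 0.579, edgeR adjusted p = 0.458). Its fold was 1.31 without PBS replicate 2 and 2.46 without PBS replicate 3. All EU libraries lay above all PBS libraries, while Ctnna3 itself stood at 3.28 ± 0.639 and 3.29 ± 0.648 CPM (SD, n = 3 each). 4930577N17Rik, across from the ETS factor gene Elf2, had 37, 34 and 20 counts in EU and 5, 0 and 6 in PBS, where 1 PBS library was at 0 (log2 fold 3.20, SE 1.01, edgeR adjusted p = 0.441). That fold was 2.66 without PBS replicate 2 and 3.59 without PBS replicate 3. Elf2 overlapped at 35.2 ± 0.998 and 35.97 ± 1.95 CPM (SD, n = 3 each).

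A pair of loci lay antisense to Ube3a, the ubiquitin ligase gene that neurons express from the maternal copy because a long antisense RNA silences the paternal one. Gm44560 (GRCm39 chr7:58935800-58938914) had 2.52, 2.49 and 3.09 CPM in EU and 1.91, 0.812 and 1.20 in PBS, without overlap (log2 fold 1.04, SE 0.374, edgeR adjusted p = 0.503). The fold of Gm44560 was 0.80 without PBS replicate 2 and 1.41 without PBS replicate 1. The longer 9330162G02Rik, 30942 bases at GRCm39 chr7:58873595-58904536, had 19.6, 19.7 and 26.6 CPM in EU and 15.3, 22.8 and 15.4 in PBS. Its groups overlap through PBS replicate 2 (log2 fold 0.30, SE 0.181, edgeR adjusted p = 0.75, with 0.14 without EU replicate 3, 0.20 without PBS replicate 1 and 0.52 without PBS replicate 2). Either locus touches an exon of Ube3a, and their transcripts match 209 bases (Gm44560) and up to 472 bases (9330162G02Rik, over 4 genes with Ube3a among them) of other transcripts, so the limit on shared reads holds here too. Ube3a stood at 186 ± 1.91 and 177 ± 12.5 CPM (SD, n = 3 each).

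Of the 5 loci with the smallest p and lower EU values, 4 had groups that do not overlap. Gm43776, in an intron of Dpp6, which encodes an auxiliary subunit of Kv4 potassium channels, had 0.485, 0.224 and 0.712 CPM in EU and 1.09, 2.76 and 1.21 in PBS (log2 fold -1.82, SE 0.61, edgeR adjusted p = 0.467). PBS replicate 2 is the highest of the 6. It is also the highest for B430319F04Rik (across from the AMP deaminase gene Ampd3, 1.39 CPM) and Gm43737 (across from the mitochondrial import gene Mtx1, 9.35 CPM). The same holds for Gm37725 (106283 bases from the nearest coding gene, the synaptic adhesion gene Slitrk3, 1.25 CPM) and Gm47493 (in the calcium release channel gene Ryr2, 3.55 CPM). Log2 folds of these 4 lay between -2.57 and -0.48, with edgeR adjusted p from 0.488 to 0.686. Without PBS replicate 2 the fold was -1.56 in place of -2.57 for Gm37725, -0.51 in place of -1.06 for Gm47493, -1.73 in place of -2.32 for B430319F04Rik, -0.37 in place of -0.48 for Gm43737 and -1.27 in place of -1.82 for Gm43776. Gm47493 matches 5 other genes and its groups overlap.

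A few long genes, most of them known for roles in neurons, held the densest runs of TEC loci. The 9 hosts with at least 10 loci held 153 of them and 17.6% of same-strand counts: Kcnip4, a Kv4 channel subunit (24), Auts2, a regulator of neurodevelopment (22), Cntnap2, a neurexin-family adhesion protein (22), Dlg2, a postsynaptic scaffold (20), Adgrb3, an adhesion receptor (19), Pcdh7, a protocadherin (13), Ank2, ankyrin-B (12), Maml3, a Notch coactivator (11), and Fam155a, a subunit of the NALCN channel (10). No locus among them was without counts. In Kcnip4 the loci summed to 23.0, 17.8 and 42.3 CPM in EU and 24.5, 22.3 and 24.9 in PBS, overlapping (exact permutation p = 0.9). The host's own row gave 31.1 to 38.7 CPM, and EU differed from PBS by 0.002 on the log2 scale (SE 0.102, edgeR adjusted p = 0.997).

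EU replicate 3 had the highest summed CPM in 9 of 9 hosts, and EU replicate 2 the lowest in 7 of 9. Of the 9 host genes themselves, 5 had their highest CPM in EU replicate 3. For Fam155a the loci summed to 9.13, 7.70 and 17.8 CPM in EU and 7.83, 8.42 and 8.43 in PBS, and for Adgrb3 to 20.3, 16.3 and 34.5 and to 20.5, 23.1 and 19.1. The groups overlap in all 9 hosts. The mean of EU lay above that of PBS in each of the 9 with all libraries, and below it in 6 of the 9 without EU replicate 3, as in Kcnip4, where it was 27.7 with and 20.4 CPM without that library, beside 23.9 in PBS.

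**Figure D3:**
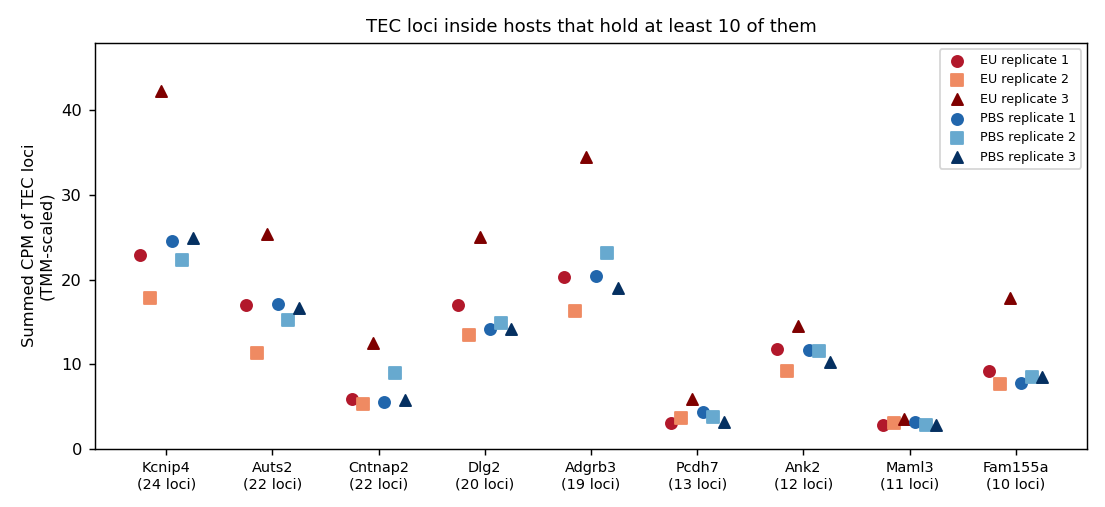
Summed TMM-scaled CPM (y axis) of the TEC loci inside each of the 9 host genes with at least 10 loci (x axis), 1 point per library. EU replicate 3 is the highest point in every host, at 42.3 CPM in Kcnip4 and 3.54 CPM in Maml3.

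The decline in level with distance from the host's 5′ end was steepest in 3 of the 9 hosts, which are named first for that reason. Values of the other hosts follow in the next paragraph. Over the 24 loci of Kcnip4, a gene of 1135 kb, Spearman's rho between distance and mean CPM per kb was -0.88, and it was -0.84 over 22 loci of Cntnap2 and -0.81 over 19 loci of Adgrb3. These are descriptions across loci that share a host and libraries. In Kcnip4 the loci within the first 50% of the gene had 0.653 ± 0.0216 CPM per kb in PBS and the others 0.284 ± 0.0436 (SD, n = 3), and in EU 0.768 ± 0.375 and 0.312 ± 0.147. By library rho ran from -0.84 to -0.65 in Kcnip4 and from -0.81 to -0.61 in Cntnap2. In Adgrb3 it ran from -0.90 to -0.81 in 5 libraries and was -0.12 in PBS replicate 2, in which 5 of the 19 loci had 0 counts.

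Whether the decline goes with host length was not tested. Cntnap2, the longest of these hosts at 2245 kb, had a rho of -0.84. Dlg2 (1973 kb) and Auts2 (1106 kb) are longer than Adgrb3 (762 kb) and had a rho of -0.30 and -0.43. In EU the loci of Dlg2 had 0.344 ± 0.124 CPM per kb in the first 50% of the gene and 0.338 ± 0.0987 in the rest. In PBS they had 0.328 ± 0.0878 and 0.192 ± 0.0474 (SD, n = 3 for each mean). In Ank2 (578 kb) rho was 0.11 over 12 loci and in Pcdh7 (415 kb) -0.03 over 13. It was -0.55 for Fam155a (565 kb) and -0.66 for Maml3 (419 kb). The locus at the far end of Kcnip4, Gm43831, had 1, 3 and 9 counts in EU and 4, 0 and 7 in PBS, whereas 2900064K03Rik, at 5970 bases from the 5′ end, had 116, 55 and 158 and 93, 161 and 102. Over all same-strand loci in hosts of at least 100 kb, the median level went from 0.146 CPM per kb in the first 25% of the host (324 loci) to 0.113 in the last 25% (196 loci), a gap that is small beside the quartiles of 0.0658 and 0.286 among the former. In hosts under 100 kb it was 0.148 (165 loci) and 0.178 (58 loci).

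**Figure D4:**
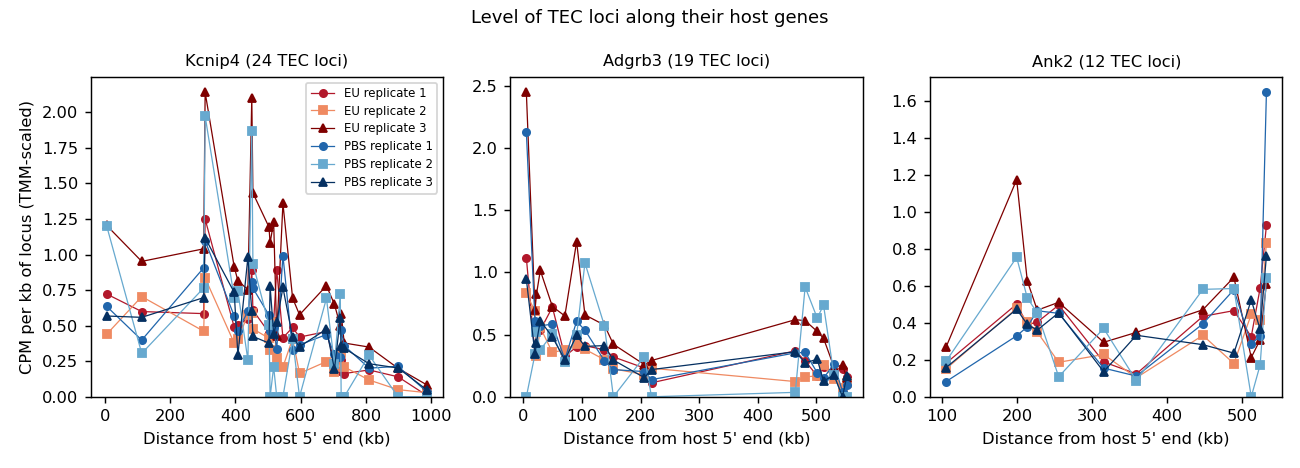
CPM per kb of each TEC locus (y axis) by its distance in kb from the 5′ end of its host (x axis) in Kcnip4, Adgrb3 and Ank2, 1 line per library. Levels fall along Kcnip4 and Adgrb3 (rho of -0.88 and -0.81) and not along Ank2 (0.11), and PBS replicate 2 drops to 0 at several loci.

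The TEC locus with the smallest p, Gm37176, lies before the 5′ end of Satb1, on the other strand. Satb1 encodes a chromatin organiser and transcription factor of cortical and hippocampal neurons. Gm37176 (ENSMUSG00000103378, GRCm39 chr17:52166195-52170245) had 5.31, 7.20 and 9.80 CPM in EU and 1.81, 3.37 and 4.73 in PBS. The groups do not overlap (log2 fold 1.17, SE 0.343, edgeR adjusted p = 0.38, and 0.91 without EU replicate 3 or 0.86 without PBS replicate 1). After these values were seen, all TEC loci within 60 kb of Satb1 were read out, 9 in number, so what follows is a description. The ends of the 3 that lie upstream of Satb1 are shown for comparison with the downstream loci above.
Gm37593 (GRCm38 chr17:51846065-51846114, plus strand): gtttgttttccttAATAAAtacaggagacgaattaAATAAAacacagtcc
Gm37266 (chr17:51852476-51852525, plus strand): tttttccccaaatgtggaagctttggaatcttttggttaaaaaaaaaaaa
Gm37176 (chr17:51863168-51863217, plus strand): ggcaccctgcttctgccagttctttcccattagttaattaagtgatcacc

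Gm37593 ends with AATAAA at 2 places, Gm37266 with a run of A and no AATAAA, and Gm37176 with neither. Gm6934, which overlaps the 5′ end of Satb1 from the other strand, had 3.28, 5.73 and 5.15 CPM in EU and 2.55, 0.766 and 3.19 in PBS. Its groups do not overlap (log2 fold 1.11, SE 0.45, edgeR adjusted p = 0.572, and 0.71 without PBS replicate 2). Gm37266, with 3.30, 2.42 and 4.96 CPM in EU and 1.72, 2.07 and 2.08 in PBS, did not overlap either (log2 fold 0.86, SE 0.316, edgeR adjusted p = 0.519, and 0.54 without EU replicate 3), but stretches of its transcript match 93 other genes. Gm37593 had 5.31, 6.45 and 8.97 CPM in EU and 3.11, 4.27 and 6.12 in PBS, and overlaps (log2 fold 0.61, SE 0.28, edgeR adjusted p = 0.649, with 0.38 without EU replicate 3 and 0.40 without PBS replicate 1).

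Together the 4 plus-strand loci gave 17.2, 21.8 and 28.9 CPM in EU and 9.19, 10.5 and 16.1 in PBS, and all EU sums lay above all PBS sums. The 5 loci on the strand of Satb1, inside the gene, were low, with sums of 1.75, 1.62 and 3.01 CPM in EU and 1.81, 0.951 and 0.988 in PBS, which overlap. Satb1 itself had 140, 155 and 169 CPM in EU and 113, 139 and 118 in PBS, without overlap (log2 fold 0.33, SE 0.092, edgeR adjusted p = 0.35). Summed neocortex markers were likewise above PBS in each EU library, at 241 to 324 against 198 to 238 CPM, with 5 of 5 markers found. The part of those cells in the values around Satb1 was not tested.

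**Figure D5:**
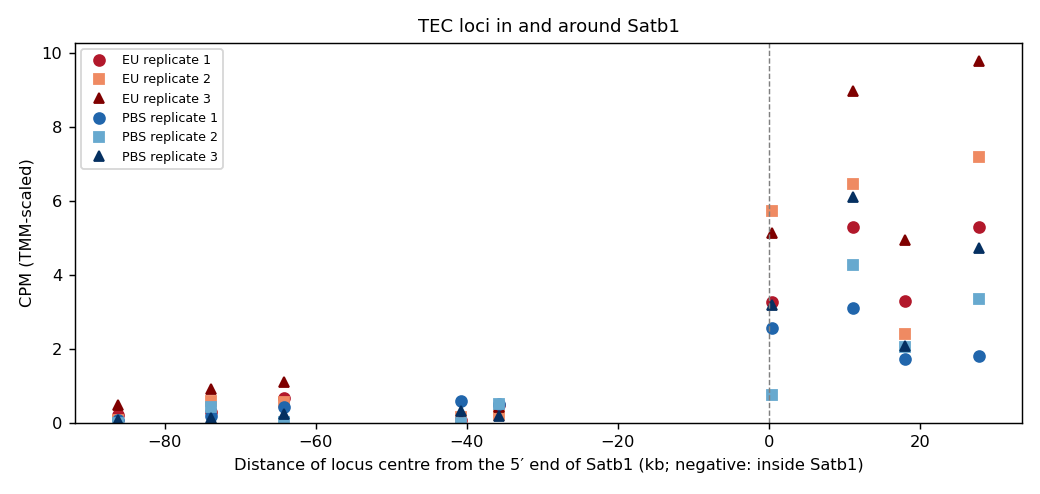
TMM-scaled CPM (y axis) of the 9 TEC loci in and around Satb1, by the distance of the locus centre from the 5′ end of Satb1 in kb (x axis, negative inside the gene), 1 point per library. All but 1 of the points of the 4 plus-strand loci, at 0.481 to 27.9 kb, lie above those of the 5 loci inside Satb1, and EU replicate 3 is highest at 3 of the 4.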

How the data were processed

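The authors deposited raw read counts per gene, with no normalization, for the 3 EU and 3 PBS libraries. The submitters' processing notes name STAR 2.7.10b, featureCounts 2.0.1, bcl2fastq 2.20.0 and the build GRCm39. Annotation release and strand setting: not given in the sources used here. Of 55508 rows, 92 ERCC spike-in rows held 0 counts and were left out, and the table held 0 columns of other samples. Groups came from the titles. TEC members, gene lists and tests were chosen with earlier results of these data known.

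All gene rows entered 1 fit in edgeR 4.0.16 under R 4.3.3 (quasi-likelihood, filterByExpr, TMM, treatment only, two-sided, Benjamini-Hochberg over all 18511 rows at 0.05), and the TEC rows were read out. The SE was obtained as the size of the log2 fold over the square root of the F statistic. Single values per library were compared by exact two-sided permutation tests. Detection at equal depth is the expected number of loci with at least 1 count at 39886723 counts. Overlap used the table's GRCm39 coordinates. Introns, exons, sequences and thymine content came from GENCODE M21 (GRCm38) by Ensembl identifier. Copies were searched with BLAST 2.17.0 (at least 100 bases, 95% identity). Named loci are the 10 with the highest CPM, the 4 per group with the highest CPM per kb, and the 5 in each direction with the smallest p, plus the loci around Satb1, added after values were seen. Alternatives were RLE scaling, library totals, no filter or a stricter one, DESeq2 1.42.0, limma 3.58.1 voom, the replicate block and leaving out each library. Without molecular identifiers reads are not separate molecules, and limits from counts cover counting error only. Figures used matplotlib 3.10.9.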

Additional observations from a re-analysis of the deposited data

How the results depend on the processing

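The difference between EU and PBS turned sign without EU replicate 3 for the share of all TEC loci, the share of same-strand loci and the ratio to host counts. Over the 6 fits that leave out a library, these ran from -0.00183 to 0.0184 percentage points, from -0.00496 to 0.0120 points and from -0.0603 to 0.125 counts per 100 host counts. The opposite-strand share ran from 0.00134 to 0.00227 points, the non-overlapping share from 0.00179 to 0.00495 points, and the gap in detected loci from 158.1 to 600.3, all above 0. Calls among TEC loci were 0 in each fit that left out a library, under RLE scaling, library totals, a stricter filter, limma voom and the replicate block, and 1 with no filter and 1 with DESeq2. Leaving ribosomal RNA and mitochondrial rows out of the totals kept the direction of the 4 shares, and leaving out the 5 loci with most counts that of the shares and the host ratio. Counting only loci wholly inside a coding row kept that of the same-strand and opposite-strand shares and the host ratio, and leaving out loci with coding rows on both strands that of the same-strand share. Asking for at least 5 counts, or not equalising depth, kept the direction of the gap in detected loci. Other pairs of these settings and results were not run.

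With the stricter filter, 4930577N17Rik, B430319F04Rik, Gm37725, C230085N15Rik, Gm36931 and Gm37248 had no fold. Of the 29 named loci with a log2 fold, 21 held its sign in each of the 13 settings that gave them one. Over the fits that leave out a library, the fold of the other 8 ran from -0.206 to 0.03 (9330121K16Rik), -0.145 to 0.015 (Gm44509), -0.144 to 0.25 (Gm9954), -0.077 to 0.109 (Gm16485), -0.12 to 0.328 (Gm43843), -0.008 to 0.156 (Particl), -0.291 to 0.27 (Gm37111) and -0.421 to 0.174 (Gm37248). With library totals it was 0.021 for Gm9954 and 0.014 for Gm16485. Gm9954 also had 0.005 with no filter, 0.053 with voom and 0.028 with the replicate block, Gm37111 had -0.001 with RLE scaling and -0.001 with DESeq2, and Gm37248 had 0.093 with voom. The cause was not tested.

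The median log2 fold over TEC loci was 0.27 with no filter, 0.33 with voom and 0.29 with the replicate block, in place of 0.10. Replicate numbers do not show that samples were paired: deviations from the group means of same-numbered libraries correlated across genes at 0.064, 0.024 and 0.098, although each library correlated best with its own number. With a median SE of 0.793 log2 units, small changes in single TEC loci were not detectable at this depth.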

Other observations

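By context in GENCODE M21, the 16 tested loci in introns only of a coding gene on the other strand had a median log2 fold of 0.29 and the 32 tested same-strand loci that touch an exon had 0.32, against 0.07 for the 818 in same-strand introns. These medians were not tested against each other. Fold changes of tested same-strand loci and of their host genes had a Spearman's rho of 0.018 over 847 loci, and 430 of the 847 pairs had the same sign. Loci in 1 host share its value, so this is a description. Level per kb and host level had a rho of 0.274 over the tested same-strand loci.

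Non-overlapping loci with AATAAA near the end passed the filter more often (22.7% of 330) than those without (12.6% of 886), and same-strand loci did not show that order (51.8% of 222 and 55.8% of 1315). This split was made after levels were seen and was not tested.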
